A study of Mus musculus with 6 samples.

Results

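Olfactory sensory neurons of the nose turn an odorant into a current through cyclic AMP. A bound receptor activates the G protein Gnal, adenylyl cyclase Adcy3 makes cyclic AMP, and the nucleotide opens a channel built from Cnga2, Cnga4 and Cngb1 subunits, while phosphodiesterases such as Pde1c and Pde4a break it down. Vomeronasal sensory neurons signal chiefly through the channel Trpc2 instead, so genes of the cyclic AMP cascade in RNA of the vomeronasal organ (VNO) can come from olfactory epithelium beside it as well as from the organ's own cells.

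The 7 genes Adcy3, Cnga2, Cnga4, Cngb1, Pde1c, Pde4a and Stoml3 were chosen by name as genes of this cascade, and each was read from the probe set with the highest mean signal among those annotated to that gene alone. This gave values for 6 of the 7, out of 22180 genes in all. Adcy3 had 0 such probe sets, because its single probe set is annotated to Cenpo as well, and it is therefore given no value here. Each of the other 6 had 1 probe set.

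RNA of whole VNOs from 3 AP-2e null and 3 wild-type mouse samples, all taken at postnatal day 17, was hybridised to 1 Affymetrix whole-transcript array each, to compare the genotypes directly. The AP-2e null mice lack AP-2e, the transcription factor made from Tfap2e. The labels name no other allele, agent or strain, and no sex, nor do they say whether animals were pooled. The samples are called biological replicates, and p-values measure the spread between these samples only. Because the material is a whole organ, a smaller number of cells of a type and less RNA per cell cannot be told apart.

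Array medians lay between 4.997 and 5.079 log2 units over 41345 probe sets, and precision is limited by how few arrays there are. Tfap2e signal was 5.97, 6.09 and 6.04 on AP-2e null replicates 1, 2 and 3, against 6.46, 6.76 and 6.92 on wild-type replicates 1, 2 and 3, lower on every AP-2e null array but not past the threshold (limma adjusted p = 0.431). The labels do not say which part of the gene is changed, so these probes check little about the allele. Vomeronasal neuron markers were present on all arrays. Gnai2, the G protein subunit of apical neurons, stood at 10.70 to 10.84 on AP-2e null and 10.52 to 10.79 on wild-type arrays. Trpc2 stood at 6.75 to 7.06 on AP-2e null and 6.87 to 7.08 on wild-type arrays. Of the 8 such markers listed, 5 had lower and 3 higher means in AP-2e null VNOs, with Calr4 at -1.10 and Gnao1 at -0.68. Gnai2 and Trpc2 alone thus do not show equal vomeronasal content in both genotypes. AP-2e null replicate 1 stood apart in Xist, the RNA of the inactive X chromosome, at 10.64 against 3.55 to 3.58 on the other 5 arrays, and the difference without that array is given for each of the 6 genes and for Gnal.

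None of the 6 measured genes passed the test between genotypes. In AP-2e null VNOs the mean was higher for Cnga2 and Stoml3 and lower for Cnga4, Cngb1, Pde1c and Pde4a, and on each of the 6 genes the values of the genotypes overlapped. The same test, limma with a Benjamini-Hochberg adjusted p under 0.05 over all genes, called 0.225% of the 22180 genes, 0.00902% (2 genes) as higher and 0.216% (48 genes) as lower. The genotypes did not overlap for 7.06% of all genes. At an unadjusted p under 0.05 there were 0 of the 6 genes in limma and 0 in a plain one-way test, beside 4.4% of all genes in limma and 2.86% in the plain test. The median difference of the 6 was -0.05 on the log2 scale, between -0.15 and 0.75, against 0.00 over all genes.

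The 6 genes differed from each other in their spread between arrays. Over all 6 arrays Cnga2 and Stoml3 differed by log2 units of 2.39 and 2.08 between their lowest and highest array, and Cnga4, Cngb1, Pde1c and Pde4a by 0.28 to 0.53. A range over 1 log2 unit was found for these 2 of the 6 genes and for 7.4% of all genes. Within a genotype, the range of Cnga2 was 0.94 over AP-2e null and 2.39 over wild-type arrays, and that of Stoml3 was 1.82 over AP-2e null and 1.79 over wild-type arrays. For Cnga4 it was 0.17 over AP-2e null and 0.12 over wild-type arrays.

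**Figure D1:**
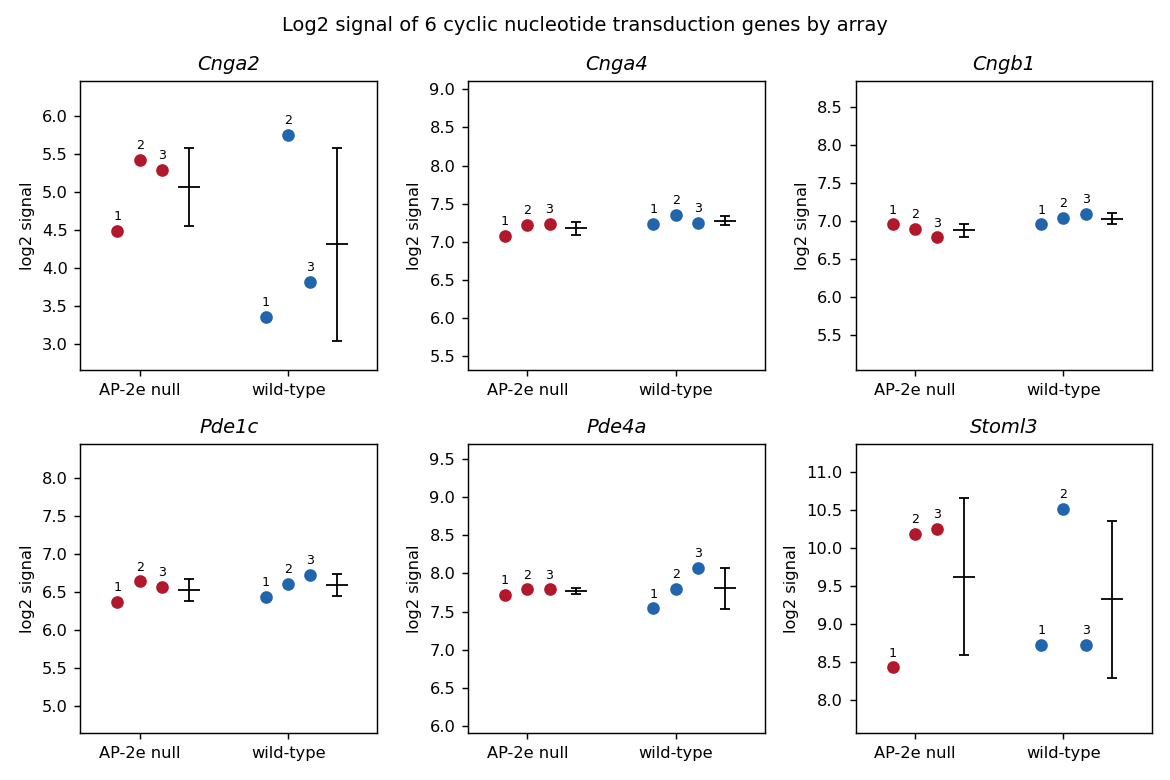
Log2 signal of the 6 measured genes on each array, with AP-2e null arrays at left and wild-type arrays at right, the replicate number above each point, and a bar for the mean with its SD (n = 3). All panels span the same number of log2 units: Cnga2 reached from 3.36 to 5.75 and Stoml3 from 8.43 to 10.51, while the other 4 genes stayed within 0.53 of their lowest array.

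Cnga2 codes for the principal subunit of the olfactory channel, without which olfactory sensory neurons give almost no response to odorants. Its log2 signal was 4.48, 5.42 and 5.29 on AP-2e null replicates 1, 2 and 3, against 3.36, 5.75 and 3.82 on wild-type replicates 1, 2 and 3. The highest array was thus wild-type replicate 2, the next were AP-2e null replicates 2 and 3, and wild-type replicates 1 and 3 were the lowest. Mean signal was 5.06 ± 0.51 in AP-2e null and 4.31 ± 1.27 in wild-type VNOs (SD, n = 3 each), and the difference was 0.75 (SE 0.67, 95% interval -0.90 to 2.41, limma adjusted p = 0.873). The interval runs from 0.53-fold to 5.32-fold, a width that leaves both lower and clearly higher signal possible. On wild-type replicate 1 the signal was below 3.62, the lower quartile over probe sets and arrays, where background weighs most. Wild-type replicate 3, at 3.82, was below 4.24, the lower quartile of mean signals over genes. Without AP-2e null replicate 1 the difference was 1.05, without wild-type replicate 2 it was 1.47, and without wild-type replicates 1 or 3 it was 0.28 and 0.51.

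Stoml3 codes for a stomatin-like membrane protein of olfactory cilia and of mechanosensory neurons. Its log2 signal was 8.43, 10.18 and 10.25 on AP-2e null replicates 1, 2 and 3, against 8.73, 10.51 and 8.73 on wild-type replicates 1, 2 and 3. The same 3 arrays as for Cnga2 were the high ones, 2 from AP-2e null VNOs and 1 from wild-type VNOs, and the other 3 lay more than 1 log2 unit below them. Mean signal was 9.62 ± 1.03 in AP-2e null and 9.32 ± 1.03 in wild-type VNOs (SD, n = 3 each), and the difference was 0.30 (SE 0.71, 95% interval -1.47 to 2.07, limma adjusted p = 0.941). Without AP-2e null replicate 1 or wild-type replicate 2 the difference was 0.89, and without AP-2e null replicate 2 or 3 it was 0.02 and -0.02. Leaving out wild-type replicate 1 or 3 brought it close to 0 as well.

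Spread within genotypes was measured as the SD pooled over the 3 arrays of each genotype. It was 0.968 for Cnga2 and 1.032 for Stoml3, and only 0.609% and 0.559% of all genes had a larger one. For Cnga4 it was 0.079, for Cngb1 0.080, for Pde1c 0.141 and for Pde4a 0.190, and 77.4%, 77.1%, 47.6% and 31.2% of genes had a larger one.

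For Cnga2 and Stoml3, which had the widest ranges of the measured genes, the 250 bases before their transcript starts are shown, as given by RefSeq (GRCm38.p6). The Cnga2 stretch is chrX:71991599-71991848 and the Stoml3 stretch is chr3:53488457-53488706, both on the plus strand. Capitals mark CCCNNGGG, the inner part of the site of the EBF (Olf-1) factors of olfactory neurons, in Cnga2, and GCCNNNGGC, the AP-2 consensus, in Stoml3.
Cnga2: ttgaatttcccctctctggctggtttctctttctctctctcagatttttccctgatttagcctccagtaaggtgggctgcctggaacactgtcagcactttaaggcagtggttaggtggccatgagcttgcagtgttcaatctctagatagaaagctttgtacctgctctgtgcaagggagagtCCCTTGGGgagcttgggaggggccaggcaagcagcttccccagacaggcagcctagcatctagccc
Stoml3: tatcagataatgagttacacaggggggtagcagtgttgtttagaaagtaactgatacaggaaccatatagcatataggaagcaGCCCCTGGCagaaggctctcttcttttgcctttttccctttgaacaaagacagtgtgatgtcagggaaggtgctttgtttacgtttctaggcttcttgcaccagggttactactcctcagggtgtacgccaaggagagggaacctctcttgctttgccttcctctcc
The match in Cnga2 begins 66 bases before the start and that in Stoml3 167 bases before it. Both strands were searched, in all 32851 upstream stretches of this length in the table, of which 12 belong to the 7 genes. CCCNNGGG stood in 11.8% of all stretches and among the 7 genes in 1 stretch each of Cnga2, Cngb1 and Pde4a. GCCNNNGGC stood in 13.7% of all and in 1 stretch each of Adcy3, Pde1c and Stoml3. Neither motif stood in both Cnga2 and Stoml3. Whether the marked stretches have to do with the arrays these genes shared was not tested. These are matches of letters, and no binding was measured here.

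Cnga4 codes for a modulatory channel subunit that vomeronasal neurons are known to make too, in contrast to Cnga2. Log2 signal stood at 7.07, 7.22 and 7.23 on AP-2e null replicates 1, 2 and 3, against 7.23, 7.35 and 7.25 on wild-type replicates 1, 2 and 3. AP-2e null replicate 1 was the lowest and wild-type replicate 2 the highest, and the highest AP-2e null value reached the lowest wild-type value. It averaged 7.17 ± 0.09 in AP-2e null and 7.28 ± 0.06 in wild-type VNOs (SD, n = 3 each), which differ by -0.11 (SE 0.07, 95% interval -0.28 to 0.07, limma adjusted p = 0.873). In linear terms this interval runs from 0.82-fold to 1.05-fold. Without AP-2e null replicate 1, its lowest array, the difference was -0.05.

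Cngb1 codes for the other modulatory subunit, which rod photoreceptors also use in a longer form. Log2 signal stood at 6.95, 6.89 and 6.78 on AP-2e null replicates 1, 2 and 3, against 6.95, 7.04 and 7.09 on wild-type replicates 1, 2 and 3. The genotypes met at a single shared value, that of both replicates 1, with the other AP-2e null arrays below it and the other wild-type arrays above it. It averaged 6.87 ± 0.09 in AP-2e null and 7.03 ± 0.07 in wild-type VNOs (SD, n = 3 each), which differ by -0.15 (SE 0.07, 95% interval -0.33 to 0.02, limma unadjusted p = 0.0751, adjusted p = 0.873). This was the smallest unadjusted p of the 6 genes, and the difference was -0.19 without AP-2e null replicate 1.

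Pde1c codes for the calcium-stimulated phosphodiesterase of olfactory cilia. The arrays gave log2 signals of 6.37, 6.64 and 6.57 on AP-2e null replicates 1, 2 and 3, against 6.44, 6.61 and 6.73 on wild-type replicates 1, 2 and 3. Both genotypes covered nearly the same range. The difference was -0.07 (SE 0.11, 95% interval -0.33 to 0.20, limma adjusted p = 0.909), and it was 0.01 without AP-2e null replicate 1.

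Pde4a codes for a cyclic AMP-specific phosphodiesterase of olfactory dendrites and cell bodies, and it also marks apical vomeronasal neurons. The arrays gave log2 signals of 7.72, 7.79 and 7.79 on AP-2e null replicates 1, 2 and 3, against 7.54, 7.80 and 8.07 on wild-type replicates 1, 2 and 3. All AP-2e null values lay inside the wild-type range. The difference was -0.03 (SE 0.14, 95% interval -0.38 to 0.31, limma adjusted p = 0.970), and leaving out wild-type replicate 3 gave 0.10, leaving out wild-type replicate 1 gave -0.17. Without AP-2e null replicate 1 it was -0.01.

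**Figure D2:**
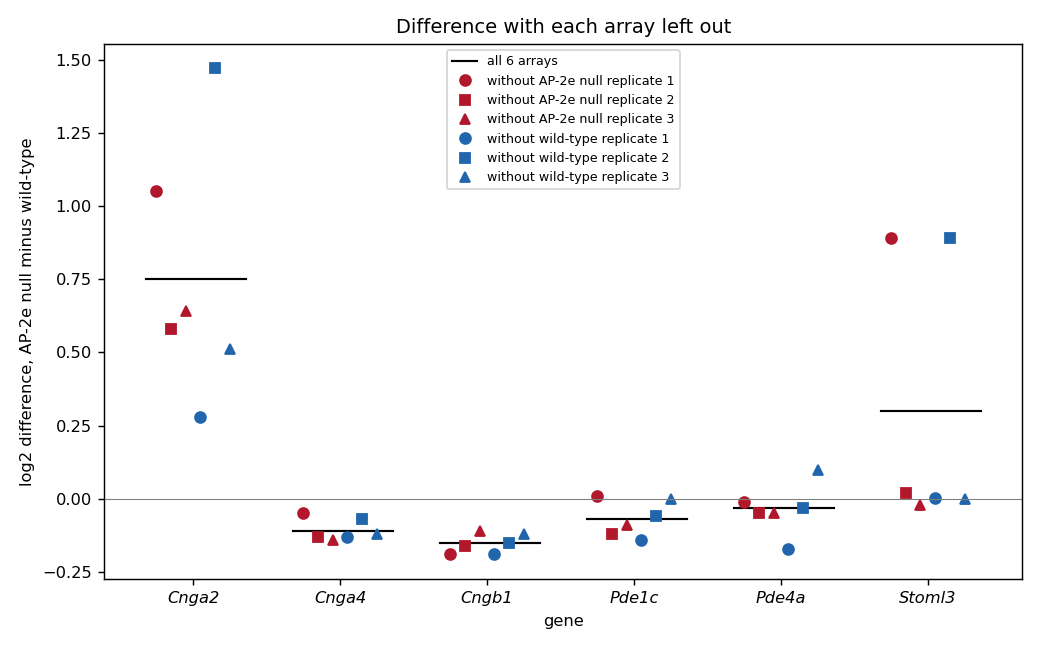
Log2 difference, AP-2e null minus wild-type, of each of the 6 genes with all arrays (black line) and with each array left out (points, coloured by the genotype of the array left out). Cnga2 lay between 0.28 and 1.47 and Stoml3 between -0.02 and 0.89, and the other 4 genes lay between -0.19 and 0.10.

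The rest of the olfactory cascade was read from a list of 16 other genes, of which 12 had a probe set of their own. Of the 12, 0 rose and 0 fell, 5 had higher and 7 lower means in AP-2e null VNOs, and the median difference was -0.01. At an unadjusted p under 0.05 there were 2 in limma and 2 in the plain test, namely Rtp1 and Ano2. The shares over all genes were 4.4% in limma and 2.86% in the plain test. Rtp1, which carries odorant receptors to the cell surface, differed by 0.44 (95% interval 0.25 to 0.63, limma adjusted p = 0.370). Ano2, the chloride channel that amplifies the olfactory current, differed by -0.40 (95% interval -0.62 to -0.19, limma adjusted p = 0.705). Neither gene had the array order of Cnga2. On wild-type replicate 1, where Cnga2 was lowest, Rtp1 stood at 10.59 and Ano2 at 8.27. Which cells the signal of Rtp1 and Ano2 came from was not tested.

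Gnal, the G protein subunit upstream of Adcy3, followed the arrays as Cnga2 did. Its log2 signal was 5.24, 7.14 and 7.12 on AP-2e null replicates 1, 2 and 3, against 4.35, 7.55 and 5.88 on wild-type replicates 1, 2 and 3. Its difference of 0.58 had a 95% interval of -1.77 to 2.92 (limma adjusted p = 0.912), and it was 1.21 without AP-2e null replicate 1 and -0.21 without wild-type replicate 1. Ric8b, an exchange factor for Gnal, was also highest on AP-2e null replicates 2 and 3 and on wild-type replicate 2, at 7.70, 7.77 and 7.84 against 7.37 to 7.40 elsewhere.

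The remaining members of that list varied less with the arrays or in another order. Omp, made by mature sensory neurons of both organs, differed by -0.41 and was highest on wild-type replicate 3, at 10.48. The G protein subunit Gnb1 differed by -0.10 and Slc12a2, which loads cells with chloride, by -0.01. Slc24a4, the sodium/calcium exchanger of olfactory cilia, differed by 0.06, the receptor kinase Grk3 by -0.02 and Arrb2, an arrestin, by -0.13. The receptor transport genes Rtp2 and Reep1 differed by -0.08 and 0.05.

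**Figure D3:**
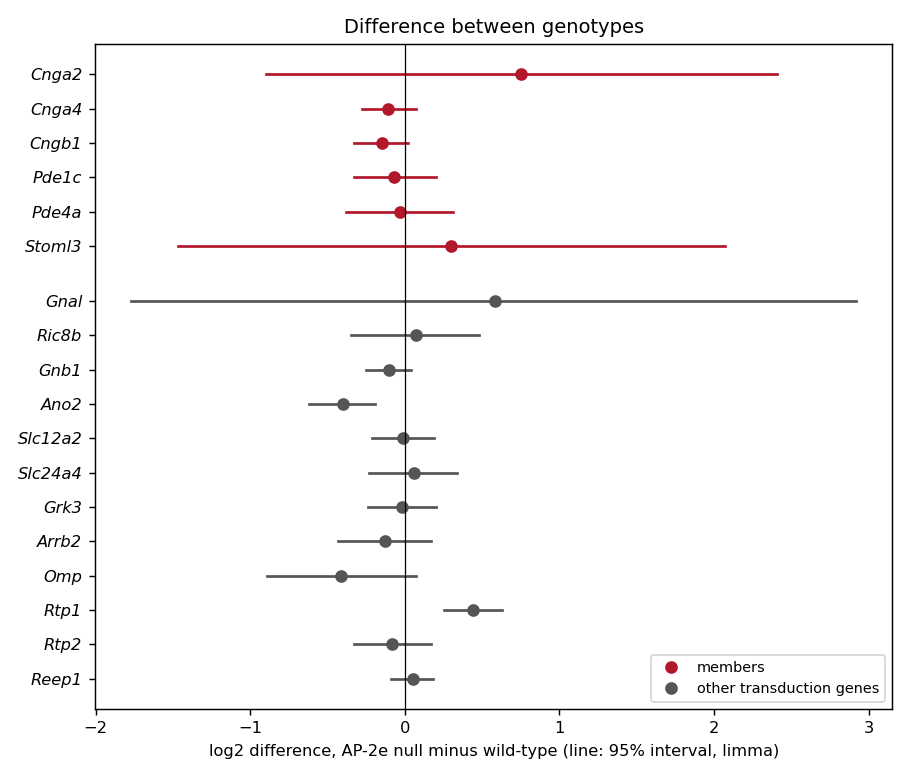
Log2 difference, AP-2e null minus wild-type (point), with its 95% interval from limma (line), for the 6 genes and for 12 other olfactory transduction genes. Intervals of Cnga2, Stoml3 and Gnal are the widest, Gnal reaching from -1.77 to 2.92, and those of Rtp1 and Ano2 do not cross 0 before adjustment over all genes.

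Paralogs of the 7 genes, which do comparable work in other tissues, were measured for all 20 listed. Of these 0 rose and 0 fell, 12 had higher and 8 lower means, and the median difference was 0.07. At an unadjusted p under 0.05 there were 2 in limma and 2 in the plain test, beside 4.4% and 2.86% of all genes. The 2 were Cnga1, the rod channel subunit, at -0.24 and Stom, the stomatin of red cells and epithelia, at -0.37. Limma adjusted p was 0.873 for both. Of the 20 paralogs 0 had a range over 1 log2 unit between arrays.

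Markers of neighbouring cell types were read from the same arrays. The olfactory supporting and gland cell list, with 6 of 7 genes measured, had mean log2 signals of 6.33, 7.64 and 7.52 on AP-2e null replicates 1, 2 and 3, against 6.05, 7.83 and 6.67 on wild-type replicates 1, 2 and 3. AP-2e null replicates 2 and 3 and wild-type replicate 2 were thus again the 3 highest, and 5 of the 6 genes had a range over 1 log2 unit. Named after their values were seen, Cyp2g1, a cytochrome P450 of olfactory supporting and gland cells, stood at 7.27, 9.70 and 10.01 on AP-2e null against 4.33, 10.13 and 7.41 on wild-type replicates 1, 2 and 3. Cyp1a2, of the same enzyme class, stood at 4.23, 5.96 and 5.80 on AP-2e null against 4.62, 6.16 and 4.68 on wild-type replicates, and Ermn, a cytoskeletal protein, at 3.38, 5.03 and 4.82 on AP-2e null against 3.55, 5.38 and 4.43 on wild-type replicates. The other 3 genes of the list did not have these 3 arrays as their highest. Cyp2a5, another P450, stood at 4.56, 6.33 and 5.95 on AP-2e null against 5.42, 5.69 and 5.76 on wild-type replicates. Muc2, a secreted mucin, stood at 5.86, 6.07 and 5.78 on AP-2e null against 5.49, 6.67 and 5.45 on wild-type replicates. Cbr2, the list's gene with the highest mean, lay between 12.68 and 12.76 on AP-2e null and between 12.31 and 12.94 on wild-type arrays. Over all genes, 4.14% had their 3 highest signals on these 3 arrays, which were picked out here from the values of Cnga2.

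Of the 8 olfactory sensory neuron markers, all were measured and 3 had a range over 1 log2 unit. The list mean was 7.84 to 8.35 on AP-2e null and 7.66 to 8.50 on wild-type arrays, with AP-2e null replicates 2 and 3 and wild-type replicate 2 the 3 highest. That order did not hold without Gnal and S100a5, when the mean was 8.64, 8.58 and 8.57 on AP-2e null replicates 1, 2 and 3, against 8.79, 8.63 and 8.70 on wild-type replicates 1, 2 and 3. Gnal and Ric8b also belong to the transduction list above. S100a5, a calcium-binding protein of active olfactory neurons, had the largest range of this list and is named after its values were seen: 5.60, 7.72 and 8.27 on AP-2e null against 4.20, 8.62 and 6.55 on wild-type replicates 1, 2 and 3. With Gnal and Ric8b it made up the 3 of the 8 genes that were highest on those 3 arrays, and the other 5 were not. Nqo1, the list's gene with the highest mean, was highest on AP-2e null replicate 1, at 10.04, and lowest on wild-type replicate 3, at 8.95. In limma 2 of the 8 had an unadjusted p under 0.05, Slc17a6, a vesicular glutamate transporter, at -0.59 and Umodl1 at -0.38. In the plain test there was 1, and 0 passed with adjustment over all genes. The shares of all genes at an unadjusted p under 0.05 were 4.4% in limma and 2.86% in the plain test. On wild-type replicate 1, where Gnal and S100a5 were lowest at 4.35 and 4.20, Slc17a6 stood at 8.63 and Umodl1 at 9.60. Which cells the signal of Slc17a6 and Umodl1 came from was not tested.

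To what extent olfactory epithelium taken along with the organ contributed to the spread of Cnga2 and Stoml3 was not tested. With the array mean of the supporting and gland cell list as a covariate, an alternative added after seeing the data, the difference was 0.40 (95% interval -0.25 to 1.05, limma adjusted p = 0.850) for Cnga2 and -0.08 (95% interval -0.70 to 0.55, limma adjusted p = 0.954) for Stoml3. Their SE was then 0.25 and 0.24, against 0.67 and 0.71 without the covariate. The covariate was already seen to have the same highest arrays as both genes. A smaller SE follows from that choice and is no test of where the signal came from. For the other 4 genes the differences with the covariate were -0.13 for Cnga4, -0.15 for Cngb1, -0.10 for Pde1c and -0.06 for Pde4a.

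**Figure D4:**
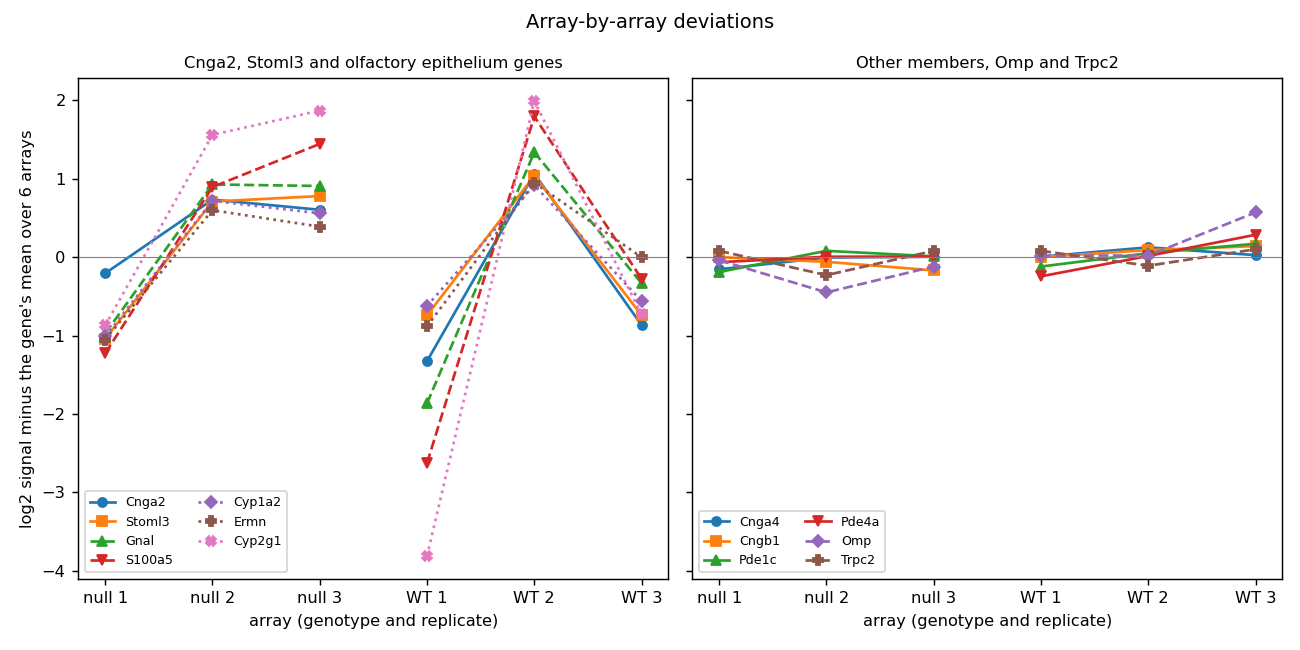
Log2 signal minus the gene's own mean over the 6 arrays, for each array (AP-2e null replicates, then wild-type replicates; lines only join the points of a gene). At left, Cnga2, Stoml3, Gnal, S100a5, Cyp1a2, Ermn and Cyp2g1 are highest on AP-2e null replicates 2 and 3 and wild-type replicate 2; at right, Cnga4, Cngb1, Pde1c, Pde4a, Omp and Trpc2 vary less and in other orders. The genes at left other than Cnga2 and Stoml3 were picked for this order after their values were seen; Ric8b, not drawn, shared it, and Cyp2a5, Muc2, Cbr2, Nqo1, Umodl1, Slc17a6, Lhx2 and Emx2 of the same marker lists, also not drawn, did not.

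Lists of other cell types did not share that order of arrays. Some of their genes did vary widely, with a range over 1 log2 unit for 3 of 5 ensheathing glia markers. The same held for 2 of 8 multiciliated and 2 of 8 vomeronasal neuron markers, beside 7.4% of all genes. It held for 0 immature neuron, macrophage or guanylyl cyclase D neuron genes. Multiciliated respiratory cell markers, 8 of 9 measured, had list means of 7.57 to 7.87 on AP-2e null and 7.72 to 8.32 on wild-type arrays. All 8 had lower means in AP-2e null VNOs, beside 11146 of the 22180 genes, and 0 passed the threshold. The genotypes overlapped on each of the 8, and the list mean of wild-type replicate 3, at 7.72, lay inside the AP-2e null range. Rsph1, a radial spoke protein, differed by -0.37. Vomeronasal neuron markers lay at 9.13 to 9.23 on AP-2e null and 9.43 to 9.58 on wild-type arrays, with 0 past the threshold. At an unadjusted p under 0.05 there were 5 of 8 in limma and 3 of 8 in the plain test. The shares over all genes were 4.4% in limma and 2.86% in the plain test. The 5 in limma were Calr4 at -1.10, Gnao1 at -0.68, Kirrel3 at -0.50, Robo2 at -0.49 and Meis2 at 0.26. This list was chosen with earlier results of these data known, so the counts are a description only. Ensheathing glia markers, 5 of 6 measured, lay at 6.55 to 7.21 on AP-2e null and 6.20 to 6.82 on wild-type arrays, with Fabp7 at 0.22. Immature neuron markers lay at 8.42 to 8.60 on AP-2e null and 8.32 to 8.63 on wild-type arrays, with the microtubule regulator Stmn2 at 0.00, and macrophage markers at 7.94 to 8.07 on AP-2e null and 7.89 to 8.02 on wild-type arrays, with the growth factor receptor Csf1r at 0.16. Genes of guanylyl cyclase D neurons, an olfactory class with a cyclic GMP cascade, lay at 6.38 to 6.63 on AP-2e null and 6.35 to 6.44 on wild-type arrays, with Car2, a carbonic anhydrase, at 0.08. Of these 6 lists, 0 genes passed in limma or in the plain test, and beside the 5 vomeronasal markers 0 lay at an unadjusted p under 0.05.

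The genes whose profile over the 6 arrays lay closest to that of Cnga2, the member with the largest range, were found by the root mean square difference of values centred on each gene's mean, among 18581 genes with mean signal above 3.62. A gene with no variation at all would lie at 0.875. The closest named genes were the odorant receptor genes Olfr1200 at 0.203 and Olfr1509 at 0.254, the dopamine receptor gene Drd2 at 0.330, the phosphatase gene Dusp1 at 0.331 and the odorant receptor gene Olfr653 at 0.389. Olfr1200 stood at 4.53, 5.44 and 5.38 on AP-2e null replicates 1, 2 and 3, against 3.56, 6.23 and 4.36 on wild-type replicates 1, 2 and 3. Its value on wild-type replicate 1 was below 3.62, near background. So were Olfr653 on wild-type replicate 1, at 3.32, and Olfr1509 on wild-type replicate 3, at 3.49. Stoml3 came at place 12 of the ranking with 0.424 and Gnal at place 21 with 0.474. S100a5 came at place 4436 with 0.85 and Cyp2g1 at place 18392 with 1.27. Values were not scaled, so a gene with a much larger range lies far from Cnga2 even where its highest arrays are the same. Cnga4, Cngb1, Pde1c and Pde4a lay at 0.852 to 0.914, near the 0.875 of a gene with no variation. Such a distance from Cnga2 does not by itself show a flat profile, as S100a5 lay near it too. The small variation of these genes is seen in their ranges of 0.28 to 0.53 log2 units.

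The 1105 measured odorant receptor genes had a mean log2 signal of 2.93 to 2.96 on AP-2e null and 2.88 to 2.95 on wild-type arrays and a median difference of 0.01. Since 827 of them had a mean below 3.62, these summaries lie mostly in background and say little about olfactory neurons. Of the 1105, 184 or 16.7% had a range over 1 log2 unit, beside 7.4% of all genes. The 278 with a mean above 3.62 averaged 4.41, 4.40 and 4.44 on AP-2e null replicates 1, 2 and 3, against 4.32, 4.45 and 4.31 on wild-type replicates 1, 2 and 3. Of these 278, 30 or 10.8% had their 3 highest signals on the arrays where Cnga2 was highest, beside 4.47% of all genes above 3.62; this subset was chosen after seeing the data and is a description only. In the test 2 odorant receptor genes rose and 0 fell, and both had another order of arrays than Cnga2. Olfr1508 stood at 8.77, 8.76 and 8.59 on AP-2e null replicates 1, 2 and 3, against 5.68, 4.12 and 4.57 on wild-type replicates 1, 2 and 3 (limma adjusted p = 0.0423), so that it was as high on AP-2e null replicate 1, where Cnga2 and Stoml3 were low, as on the other AP-2e null arrays, and lowest on wild-type replicate 2, where both were highest. Olfr743 stood at 4.51, 4.41 and 4.55 on AP-2e null replicates against 3.96, 3.87 and 3.86 on wild-type replicates (limma adjusted p = 0.0493). Both calls depended on the processing. Olfr1508 passed in 8 of 17 alternatives, with adjusted p of 0.0176 to 0.430, and Olfr743 in 2 of 16, with adjusted p of 0.0311 to 0.877. Both lost their call with array weights, every probe set fitted by itself, the plain test and the replicate block. With single arrays left out, Olfr1508 passed only without wild-type replicate 1 and Olfr743 in 0 of 6 fits.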

How the data were processed

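The authors deposited log2 signals, 1 value per probe set and sample, made per the submitters' processing notes with RMA (background correction, quantile normalization, summary over probes) and the Transcriptome Analysis Console. The labels give no version, setting or genome build.

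Of 41345 probe sets, platform annotation named 1 gene for 23521, several for 1814 and none for 16010. An Entrez match to a RefSeq table (GRCm38.p6) covered 23328 and changed 0 symbols. The highest-mean probe set per gene left 22180 genes, fitted with limma 3.58.1 (R 4.3.3; lmFit, eBayes, 2-sided, no covariate, Benjamini-Hochberg over all genes, threshold 0.05, 95% intervals), and tested on simulated data. Each difference is the AP-2e null mean minus the wild-type mean. Plots used matplotlib 3.10.9 in Python 3.11.15.

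The 7 genes and all lists were chosen with earlier results of these data known. Named were all members and other transduction genes. Other lists gave genes with unadjusted p under 0.05 in limma and the highest-mean gene, odorant receptors those past the threshold, and the profile ranking the 5 closest genes without predicted, clone or small RNA names. Lists were described by counts and medians. No filter on dim genes was set. Alternatives changed variance moderation, probe sets, filter, normalization, weights, test, replicate block and arrays used.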

Additional observations from a re-analysis of the deposited data

How the results depend on the processing

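None of the 6 genes passed under any of 17 alternatives, and adjusted p lay between 0.716 and 1. Cnga2, Cnga4 and Cngb1 kept their direction in all 17. With single arrays left out, differences ranged from 0.28 to 1.47 for Cnga2, -0.14 to -0.05 for Cnga4, -0.19 to -0.11 for Cngb1, -0.14 to 0.01 for Pde1c, -0.17 to 0.10 for Pde4a and -0.02 to 0.89 for Stoml3. Array weights gave 0.01 for Pde1c and 0.07 for Pde4a, and the covariate added after seeing the data gave -0.08 for Stoml3, each with the sign turned; the cause was not tested.

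Over all genes, the number that rose, 2, was 1 with array weights or averaged probe sets, 0 with every probe set fitted by itself, the plain test or the replicate block, 4 with repeated quantile normalization, and 0 to 1 with single arrays left out. The number that fell, 48, was 4 in the plain test, 22 with the replicate block and 17 to 32 with single arrays left out. Odorant receptors past the threshold, 2, numbered 1 with trend and robust moderation, the mean of probe sets, the dim filter or median centring, 0 with every probe set, array weights, the plain test or the replicate block, and 0 to 1 with single arrays left out. Vomeronasal neuron markers past the threshold numbered 0 to 1 with single arrays left out, the 1 being without wild-type replicate 3. Samples with the same replicate number did not deviate together (correlations of 0.040, 0.110 and 0.019 across genes), so the numbers were not taken as pairs. With the replicate block Cnga2 differed by 0.75 and Stoml3 by 0.30, with no call. Signal near background limits Cnga2 on wild-type replicate 1. Wild-type replicate 3, at 3.82, was also low, below the 4.24 that is the lower quartile of gene means.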
